A study of Mus musculus with 4 samples.

Results

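The astrocytes of the mouse ventromedial prefrontal cortex (vmPFC) were taken from 3 libraries of unsorted cells and were chosen by their own counts of marker transcripts. A cell counted as an astrocyte when it held 6 or more unique molecular identifiers (UMIs, each standing for 1 captured transcript) of Aqp4, Gja1, Aldh1l1 and Slc1a3 together. It also had to hold at most 2 UMIs of each of 5 exclusion sums, which were Pdgfra plus Cspg4, Mog plus Mag, Cldn5, Cx3cr1 plus P2ry12, and Slc17a7 plus Gad1 plus Gad2. Cells in the authors' list of excitatory neurons were left out, and cells were kept if they held between 500 and 8000 genes, between 1000 and 60000 UMIs and less than 20% of UMIs from mitochondrial genes. This rule found 463 astrocytes among 19472 filtered cells of the unsorted libraries, or 21263 filtered cells in the whole series. The cells were 149 in mouse 1, 142 in mouse 2 and 172 in mouse 3.

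Astrocytes are the star-shaped glia that tile the grey matter, wrap synapses and place endfeet on blood vessels. They take up glutamate, GABA and potassium after neuronal firing, convert glutamate to glutamine, buffer pH, store glycogen, make cholesterol and export it in ApoE particles. Neighbouring astrocytes are joined by gap junctions built from connexins, and after injury they can enter a reactive state in which the filament protein GFAP increases.

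The study, MERGE-seq, read retrograde viral labels and transcriptomes of single vmPFC cells on the 10x Genomics platform. Male C57BL/6 mice, labelled as 8 weeks old, had all received rAAV-EGFP-BARCODE viruses in several projection targets, so no mouse was without virus. That age is the age at injection in the study's methods, and the cells were taken some weeks later. Each unsorted library came from 1 mouse (mouse 1, 2 or 3), and a FAC-sorted library pooled 3 mice (mouse 4-6). The prelimbic and infralimbic areas were cut out and dissociated with papain, so the astrocytes are those that survived dissociation, and their cortical layer was not recorded. The labels describe the samples as retrogradely labelled neurons, but the unsorted libraries held all cell types.

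Astrocytes were 2.12% of the filtered cells of mouse 1, 2.24% of mouse 2 and 2.81% of mouse 3, a mean of 2.39% ± 0.364 (SD, n = 3). Their exact (Clopper-Pearson) 95% binomial intervals, which cover counting error only, were 1.80 to 2.49%, 1.89 to 2.64% and 2.41 to 3.25%. The intervals of mouse 1 and mouse 3 overlap. No astrocyte was found among 1791 cells of the sorted library, where 3 counts would be a share of 0.168% and the exact 95% upper limit is 0.206%. That library had been sorted for virally labelled neurons, so the sort can set this share.

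The unsorted libraries held 7243 to 8040 cell barcodes and 83039497 to 87809114 UMIs each, and pairs of the 4 libraries shared 5 to 30 cell barcodes. Summed astrocyte counts were 502339, 462906 and 585195 UMIs in mouse 1, 2 and 3. The median astrocyte held 3365, 3353.5 and 3408.5 UMIs and 1757, 1737.5 and 1748.5 genes, with 8.79, 8.29 and 8.23% mitochondrial UMIs. The other filtered cells outside the list of excitatory neurons, 11244 cells called the other cells below, held medians of 4277, 4439 and 4586 UMIs. Levels are given as counts per 1000000 UMIs of the summed class in a library (CPM), so they compare the make-up of the RNA and not its amount per cell.

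The rule's own genes describe the selection and were not tested. Slc1a3, the glutamate transporter GLAST, stood at 5092, 4977 and 5068 CPM in the astrocytes of mouse 1, 2 and 3, and at a mean of 115 CPM in the other cells. Gja1, which encodes connexin 43, stood at 2090, 2190 and 2247 CPM against 16.5. Aqp4, the water channel of the endfeet, stood at 780, 853 and 793 CPM against 5.18, and Aldh1l1, a folate enzyme, at 133, 143 and 142 CPM against 1.06. The median astrocyte held 26, 24.5 and 26 UMIs of the 4 genes together, far from the limit of 6.

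Few cells lay near that limit. Among the cells that passed all 5 exclusion sums, 22 had 3 to 5 marker UMIs and 12 had 6 to 8, whereas 412 had 15 or more and 880 had none. A further 129 cells reached 6 marker UMIs and were turned away by an exclusion sum, most often by the precursor genes (51 cells) or the microglial genes (42 cells). No doublet caller was run. Beside the upper limits on genes and UMIs per cell, these sums are the sole guard against doublets.

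**Figure D1:**
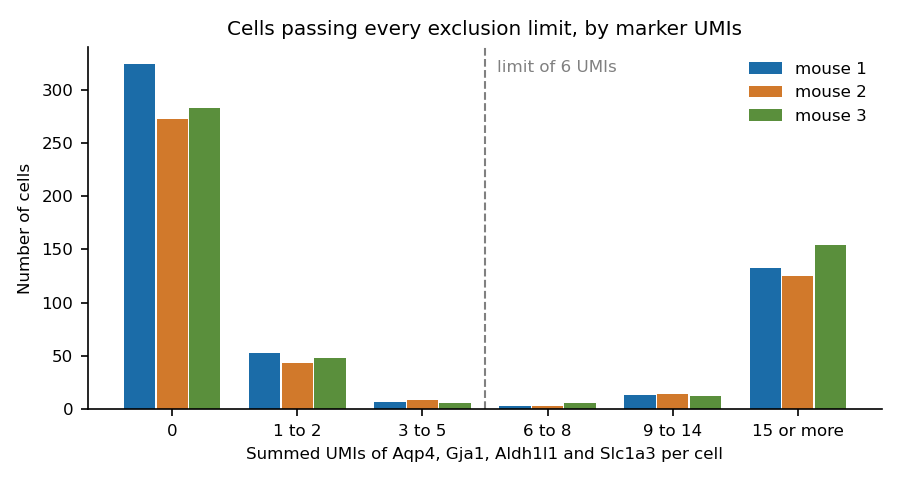
Number of cells that passed all 5 exclusion sums (vertical axis) by their summed UMIs of Aqp4, Gja1, Aldh1l1 and Slc1a3 (horizontal axis, in classes), with a bar for each unsorted mouse. The line marks the limit of 6 UMIs, and just 22 cells lie in the class below it (3 to 5) and 12 in the class above it (6 to 8).

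Genes were then compared between summed astrocytes and summed other cells of the same libraries with edgeR's quasi-likelihood test. To be called higher or lower, a gene needed a fold change of at least 1 on the log2 scale and an adjusted p (Benjamini-Hochberg) below 0.05, and the genes of the rule took no part in the calls. Because the cells were gated on 14 genes, genes that vary with them had to differ, so these contrasts describe the gated cells. Their p-values say only that a difference exceeded the spread between libraries. Of 14875 genes tested, 2150 were higher and 3954 lower in astrocytes, so that 41% were called, 14.5% as higher and 26.6% as lower. The unadjusted p of this test was under 0.05 for 9504 genes. The share of all genes whose libraries did not overlap is not given here. Where libraries are said below not to overlap, this describes a gene and does not set it apart from other genes. The same astrocyte sums were also set against 1565 oligodendrocyte precursors, 1708 mature oligodendrocytes and the 7765 excitatory neurons, so these contrasts are not independent of each other. Of all genes, 31.4% were called against precursors (14.1% higher, 17.3% lower), 43.6% against oligodendrocytes (23.3% higher, 20.3% lower) and 49.8% against excitatory neurons (20.7% higher, 29.1% lower). In the text below, ± after a CPM value is the SD over 3 libraries and ± after a log2 fold change is its standard error.

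Of 20 astrocyte markers that the rule did not use, 19 were called higher than in the other cells. Their median log2 fold change was 6.07, against -0.25 over all genes tested. Such genes vary with the rule's genes, and the list was made with results of these data known. These values therefore describe the gated cells and do not test the label. Slc1a2, the glutamate transporter GLT-1, was at 7736, 6930 and 7295 CPM in astrocytes and at 266, 250 and 261 CPM in the other cells (log2 fold change 4.87 ± 0.09). Sox9, the transcription factor of the astrocyte lineage, was at 786, 836 and 830 CPM against 13.0, 12.3 and 12.4 (6.07 ± 0.08). Every astrocyte library lay far above every library of other cells for both genes. Aldoc, the brain form of aldolase, was higher by 6.04 ± 0.05, and Plpp3, a lipid phosphatase, by 5.37 ± 0.05. Fgfr3, a receptor of fibroblast growth factors, was higher by 6.80 ± 0.10. The exception was Cst3, the protease inhibitor cystatin C, at 12337 ± 335 CPM in astrocytes and 10357 CPM in the other cells (0.30 ± 0.07). Microglia, gated with the same kind of rule, held a mean of 53141 CPM of Cst3. Against oligodendrocyte precursors Cst3 was higher by 3.41 ± 0.04.

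Markers of other cells were low but not absent. Neuronal markers summed to 396 to 538 CPM in astrocytes and 9425 to 10132 CPM in the other cells, and the astrocyte level was 2.21% of that in excitatory neurons. Microglial markers summed to 104 to 162 CPM, 0.385% of the level in microglia, and endothelial markers to 10.3 to 13.9 CPM, 0.0774% of the level in endothelial cells. Markers of mature oligodendrocytes reached 0.380% and those of precursors 2.59% of the level in their own class. All 7 neuronal, 7 microglial, 6 endothelial and 6 oligodendrocyte markers were called lower than in the other cells. None of these genes was at 0 in astrocytes, and the part of free RNA or doublets in these levels was not tested.

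Mural, ependymal, stem cell and leptomeningeal markers were not excluded by the rule. Of the 5 mural markers, 4 were called lower, and Pdgfrb, the growth factor receptor of pericytes, was called higher at 111, 134 and 128 CPM (1.13 ± 0.12). The mural list summed to 155 to 257 CPM against 1125 to 1250 CPM in the other cells. Ependymal markers summed to 34.2 to 51.8 CPM in astrocytes against 25.7 to 29.1 CPM, with the defining genes Tmem212, Ccdc153 and Dynlrb2 at 0 in all astrocytes. The stem cell and neuroblast list summed to 65.7 to 114 CPM against 200 to 206 CPM, with the dividing-cell genes Top2a and Mki67 at 0. Leptomeningeal markers summed to 102 to 214 CPM in astrocytes and 17.1 to 21.0 CPM in the other cells. Of these 4 markers, 3 were called higher, and Lum was not called. The collagen gene Col1a2 was at 83.6, 110 and 123 CPM and had a UMI in 117 of 463 astrocytes. Thinned to 2000 UMIs a cell, 14.7, 16.3 and 16.7% of astrocytes and 1.94, 2.01 and 1.92% of the other cells held a Col1a2 UMI. The proteoglycan gene Dcn was at 7.96, 23.8 and 59.8 CPM, but 5 cells held 96.0% of its 50 UMIs. With astrocytes limited to cells with no exclusion UMI at all, the log2 fold change of Dcn turned from 2.24 to -3.21, and without mouse 3 it was not called (1.20), while Col1a2 and Col1a1 stayed higher.

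Across the gene lists astrocytes were mostly higher for transport, metabolism, transcription factors and receptors. The medians of these lists lay between 1.02 and 2.97, above the median of all genes, whereas the connexin, reactive and immediate early lists had medians below it. These lists were put together with results of these data known, so their counts are a description.

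**Figure D2:**
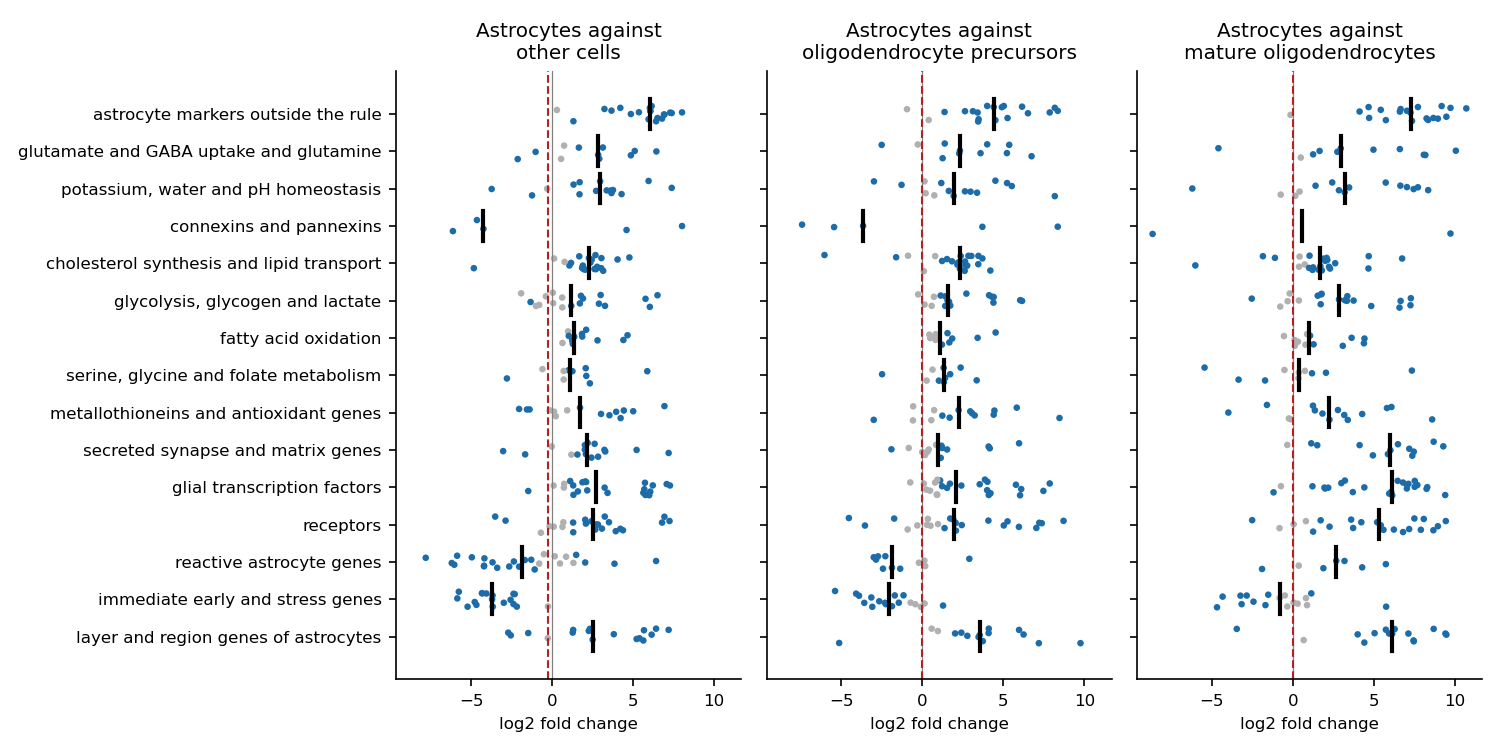
Log2 fold change of astrocytes (horizontal axis) against the other cells, oligodendrocyte precursors and mature oligodendrocytes (panels from left to right) for the members of each fixed gene list (rows), with each point a gene, blue where called and grey where not, and genes with no UMI in a group left out. The black bar is the median of the genes plotted and the red dashed line is the median of all genes tested (-0.25 in the left panel), where immediate early genes lie almost wholly on the lower side while marker, cholesterol and transcription factor genes lie on the higher side.

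Genes of transmitter clearance were high. Of 12 listed genes of glutamate and GABA uptake and glutamine handling, 7 were called higher and 3 lower, with a median log2 fold change of 2.25. Glul, glutamine synthetase, was at 3440, 3020 and 3190 CPM against 464, 419 and 437 in the other cells (2.92 ± 0.04). Slc7a11, the cystine-glutamate exchanger, was at 1157, 1158 and 1013 CPM against 15, 10.3 and 13.9 (6.45 ± 0.07). Astrocytes lay above the other cells in every library for both. Slc6a11, the astrocytic GABA transporter GAT-3, was higher by 5.11 ± 0.08, with a mean of 690 CPM in astrocytes and 25.0 CPM in inhibitory neurons.

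On the lower side were genes of other cells. Slc6a9, the glycine transporter GlyT1, was at 3.98, 10.8 and 5.13 CPM in astrocytes and at 28.5, 30.4 and 28.4 CPM in the other cells (-2.12 ± 0.37). Slc38a5, a glutamine transporter, had no UMI in astrocytes, at least 13.3-fold lower than in the other cells. Slc38a1 (0.75 ± 0.10) and the GABA-degrading enzyme Abat (0.56 ± 0.13) stayed under the fold limit. Against oligodendrocyte precursors, Glul was higher by 5.36 ± 0.07, but against mature oligodendrocytes by 1.26 ± 0.06, as oligodendrocytes themselves held 1071 CPM of it.

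Of 15 genes for potassium, water and pH balance and for the endfoot, 12 were called higher than in the other cells, with a median of 2.97. Atp1b2, a sodium pump subunit typical of astrocytes, was at 1235 ± 31.1 CPM and higher by 3.38 ± 0.06. Atp1b1, the subunit that neurons use most, was called lower (-1.23 ± 0.07) at 340, 302 and 321 CPM. The bicarbonate cotransporter Slc4a4 was at 1059, 983 and 844 CPM against 16, 15.8 and 15.9 (5.96 ± 0.07). Mlc1 and Hepacam, whose proteins form a complex at the endfoot membrane, were higher by 7.39 ± 0.14 and 2.97 ± 0.07. Slc12a2, the chloride importer NKCC1, was called lower at 15.9, 19.4 and 3.42 CPM (-3.73 ± 0.21), and mature oligodendrocytes held 726 CPM of it.

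Several of these genes did not set astrocytes apart from other macroglia. Kcnj10, the potassium channel Kir4.1, was at 157, 166 and 152 CPM in astrocytes and at 50.6, 50.5 and 49.5 CPM in the other cells (1.71 ± 0.12). Its means were 166 CPM in precursors and 211 CPM in mature oligodendrocytes, so that the log2 fold changes were 0.20 ± 0.11 and -0.74 ± 0.10, neither of them called. Hepacam likewise was 0.42 ± 0.07 against mature oligodendrocytes. Kcnj16, the partner subunit Kir5.1, stood at 98.5 ± 15 CPM in astrocytes and 1.41 CPM in oligodendrocytes (5.74 ± 0.29), and at 71.4 CPM in precursors (0.73 ± 0.15).

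The connexins outside the rule split by cell type. Gjb6, connexin 30, was at 669, 635 and 651 CPM in astrocytes and at 2.61, 1.94 and 3.15 CPM in the other cells (8.03 ± 0.11). Gjb2, connexin 26, was at 11.9, 47.5 and 20.5 CPM against 0.693, 0.633 and 1.92 (4.60 ± 0.42), lower in mouse 1 than in mouse 2 but above the other cells in every library. The oligodendrocyte connexin Gjc3 went the other way, as it had 3 UMIs in all astrocytes against 6029 in mature oligodendrocytes, a ratio of 336 (exact counting interval 115 to 1630). Of the 6 genes in the list, 2 were called higher and 4 lower than in the other cells.

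Genes of cholesterol synthesis were mostly higher in astrocytes. Of 23 genes of cholesterol synthesis and lipid transport, 20 were called higher than in the other cells, 1 lower and 2 neither, with a median of 2.28. All 14 enzymes of the synthesis pathway in the list were among those called higher. Msmo1, a sterol methyl oxidase, was at 1469, 1383 and 1333 CPM against 85.5, 90.7 and 85.2 (4.05 ± 0.06). Idi1, the isopentenyl diphosphate isomerase, was higher by 3.05 ± 0.09. No astrocyte library overlapped a library of other cells for these genes. Against precursors 18 of the 23 genes were called higher and 2 lower, and against mature oligodendrocytes, which make myelin sterol, 17 higher and 3 lower. The enzyme margins over oligodendrocytes were smaller, for example 1.04 ± 0.08 for Hmgcs1 and 1.60 ± 0.09 for Idi1. This Hmgcs1 call was lost without a filter on low counts (0.89) and without mouse 1 (0.88). The fatty acid desaturase Scd2 went the other way there (-1.85 ± 0.07), and its mean in mature oligodendrocytes was 2606 CPM.

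Lipid carriers were among the most abundant transcripts. Apoe, the main lipoprotein of brain, was at 16338, 16893 and 15960 CPM against 1905, 1849 and 1935 (3.16 ± 0.08). It had a UMI in all 463 astrocytes, with a median of 50 UMIs a cell. Clu, the chaperone clusterin, was at 2717, 2823 and 2968 CPM against 104, 104 and 112 (4.78 ± 0.05). Apoe was not particular to astrocytes among macroglia, as precursors held 8539 CPM and mature oligodendrocytes 3254 CPM. Fabp5, a fatty acid carrier, was higher than in the other cells (1.18 ± 0.06) but lower than in mature oligodendrocytes (-1.10 ± 0.07). The sterol exporter Abcg1 was the gene called lower, at 1.99, 0 and 5.13 CPM against 74.4, 80.4 and 74.2 (-4.83 ± 0.36), whereas its relative Abca1 was called higher (1.07). Lrp1, a receptor of ApoE, did not pass (0.13 ± 0.09) and was lower than in precursors (-1.62 ± 0.08).

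Sugar metabolism was uneven. Of 19 genes of glycolysis, glycogen and lactate counted, 10 were called higher and 1 lower, with a median of 1.19. Aldoa was left out of the count because more than 1 row of the tables carries its symbol. Genes of glycogen turnover were among those called higher. Phkg1, a phosphorylase kinase subunit, was at 647, 579 and 528 CPM against 11, 11.2 and 10.8 (5.78 ± 0.09). Pygb, glycogen phosphorylase, was at 247, 227 and 229 CPM against 26.9, 25.5 and 23 (3.27 ± 0.11). Ppp1r3c, which targets a phosphatase to glycogen, was at 155, 160 and 162 CPM against 1.55, 1.86 and 1.97 (6.52 ± 0.20). Every astrocyte library was above every library of other cells for these genes.

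The common glycolytic enzymes behaved otherwise. Pgk1 (0.07 ± 0.11) and Pkm (-0.38 ± 0.07) did not pass, while Aldoc passed as given above and Ldhb, the heart-type lactate dehydrogenase subunit, was higher by 1.79 ± 0.06. Slc2a1, the glucose transporter GLUT1, was called lower at 109, 71.3 and 109 CPM (-1.33 ± 0.11), and endothelial cells held a mean of 1705 CPM of it. It was higher than in precursors (2.72 ± 0.19). Against excitatory neurons, 11 of the 19 genes were called higher and 4 lower, the latter being Hk1, Pfkp, Pkm and Ldha.

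Genes of fatty acid oxidation were mostly higher than in the other cells. Of 13 genes, 11 were called higher than in the other cells and none lower, with a median of 1.38, and all 13 were higher than in excitatory neurons, with a median of 2.73. Slc27a1, a fatty acid importer, was at 597, 629 and 665 CPM against 25.9, 25.2 and 26.1 (4.66 ± 0.08). Hadhb, the thiolase subunit of the trifunctional protein, was at 177, 173 and 169 CPM against 73.8, 72.8 and 75.7 (1.27 ± 0.11). Cpt1a, the carnitine transferase that limits entry into mitochondria, was at 79.6, 77.8 and 75.2 CPM, and in excitatory neurons at 0.0913 CPM. Pdk4, the kinase that shuts pyruvate dehydrogenase, was at 27.9, 51.8 and 39.3 CPM against 1.63, 1.94 and 2.14 (4.41 ± 0.33). It had no UMI in precursors, where astrocytes were at least 85.7-fold higher. Acadm (0.99 ± 0.14) fell just short of the limit and Ech1 stood at 0.64 ± 0.12. Against precursors 7 of the 13 were called higher, and against mature oligodendrocytes 6.

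Serine and glycine genes were mixed, with 6 of 11 higher, 1 lower and a median of 1.02. Phgdh, the first enzyme of serine synthesis, was at 394, 389 and 361 CPM against 95.1, 86.8 and 89.8 (2.12 ± 0.08). Gldc, the glycine decarboxylase, was at 169, 166 and 171 CPM against 2.85, 3.21 and 2.80 (5.88 ± 0.18). Both lay above the other cells in every library, but mature oligodendrocytes held a Phgdh mean of 432 CPM (-0.51 ± 0.07). Psph was higher by 2.34 ± 0.12. Psat1, the aminotransferase between these enzymes, was at the limit (1.02 ± 0.10) and lost its call without mouse 1 (0.95). Gatm, which makes the precursor of creatine, was called lower at 81.6, 86.4 and 95.7 CPM (-2.79 ± 0.10), and oligodendrocytes held 3073 CPM of it.

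Metallothionein genes were high in astrocytes of all 3 mice. Metallothioneins are small cysteine-rich proteins that bind zinc and copper, and Mt3 is the brain form. Their genes lie side by side on chromosome 8, and many metallothionein promoters carry metal response elements, whose core is read by the factor MTF1. Promoter sequences of the 3 genes are printed here because the genes were high together. They come from RefSeq (GRCm38.p6, plus strand, 5′ to 3′) and run from 250 bases before to 50 bases after the start of each gene. They lie at chr8:94152357-94152656 for Mt3, chr8:94172368-94172667 for Mt2 and chr8:94178839-94179138 for Mt1. Capitals mark matches to TGCACNC or TGCGCNC on either strand.
Mt3: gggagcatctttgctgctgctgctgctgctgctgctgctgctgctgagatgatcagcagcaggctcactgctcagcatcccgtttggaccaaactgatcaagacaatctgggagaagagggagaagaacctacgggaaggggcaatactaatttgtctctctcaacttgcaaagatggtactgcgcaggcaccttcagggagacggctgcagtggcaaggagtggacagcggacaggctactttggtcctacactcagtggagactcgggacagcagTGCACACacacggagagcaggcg
Mt2: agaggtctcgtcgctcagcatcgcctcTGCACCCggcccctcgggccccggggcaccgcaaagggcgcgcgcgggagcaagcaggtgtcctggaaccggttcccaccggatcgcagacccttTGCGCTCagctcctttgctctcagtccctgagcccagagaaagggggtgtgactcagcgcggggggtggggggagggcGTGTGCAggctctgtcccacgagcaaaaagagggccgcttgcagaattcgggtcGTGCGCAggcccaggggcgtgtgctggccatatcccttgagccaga
Mt1: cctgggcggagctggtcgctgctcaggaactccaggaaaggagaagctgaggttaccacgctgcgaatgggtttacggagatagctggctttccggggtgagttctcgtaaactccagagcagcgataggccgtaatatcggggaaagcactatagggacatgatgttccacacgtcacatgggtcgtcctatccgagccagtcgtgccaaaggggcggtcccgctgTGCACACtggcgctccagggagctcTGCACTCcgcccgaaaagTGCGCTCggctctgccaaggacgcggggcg
The Mt3 promoter held 1 match, Mt2 4 and Mt1 3. Of 32851 RefSeq mouse promoters of this length, 25.7% held at least 1 match, 1.97% at least 3 and 0.517% at least 4. A match is a string of letters and not a shown binding site.

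Mt1 was at 3822, 3971 and 4487 CPM in astrocytes and at 178, 183 and 227 CPM in the other cells (4.44 ± 0.05). Mt2 was at 790, 955 and 1078 CPM against 27.5, 27.2 and 35.3 (5.02 ± 0.06), and Mt3 at 1913, 1836 and 2461 CPM against 160, 175 and 214 (3.55 ± 0.05). For all 3 genes mouse 3 was the highest, both in astrocytes and in the other cells, and the groups did not overlap. Transcripts of Mt1, Mt2 and Mt3 were found in 452, 408 and 446 of 463 astrocytes. After thinning to 2000 UMIs a cell, Mt1 was found in 99.3, 99.2 and 98.1% of astrocytes and in 28.6, 29.7 and 32.2% of the other cells.

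The 3 genes had different second sources. Mt1 stood next highest in endothelial cells (410 CPM) and mature oligodendrocytes (311 CPM). Mt2 reached 112 CPM in endothelial cells and 1.58 CPM in excitatory neurons. Mt3 reached 428 CPM in excitatory neurons, 326 CPM in inhibitory neurons and 14.4 CPM in endothelial cells. So the margin over excitatory neurons was 9.0 for Mt2, 5.70 for Mt1 and 2.07 for Mt3 on the log2 scale.

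**Figure D3:**
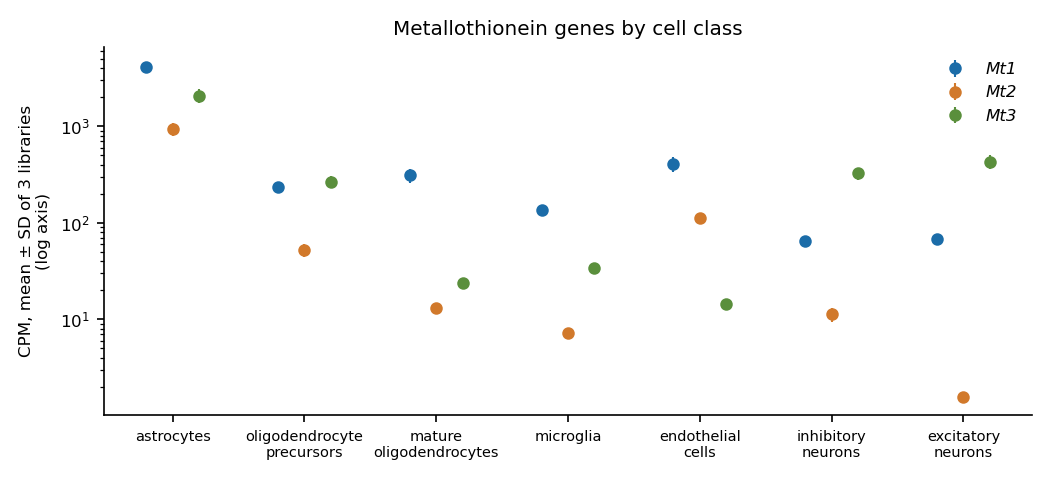
Mean CPM with its SD over 3 libraries (vertical axis, log scale) of Mt1, Mt2 and Mt3 in 7 cell classes of the unsorted libraries (horizontal axis). Astrocytes are the highest class for each gene, at 4093, 941 and 2070 CPM.

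In the list of metallothionein and antioxidant genes, which counts Mt1, Mt2 and Mt3, 8 of 15 genes were called higher and 3 lower, with a median of 1.73. Prdx6, a peroxiredoxin, was at 1756, 1625 and 1603 CPM against 92.8, 90.6 and 89.8 (4.24 ± 0.05), and the glutathione transferase Gstm5 was higher by 3.03 ± 0.06. Slc39a12, a zinc importer, was at 279, 296 and 320 CPM against 2.53, 2.28 and 2.67 (6.94 ± 0.15). Iron storage went the other way. Fth1, the ferritin heavy chain, was at 1750, 1864 and 1808 CPM against 5630, 5416 and 5378 (-1.55 ± 0.08), with 22703 CPM in mature oligodendrocytes, and Ftl1 was lower by 1.39 on the log2 scale. The antioxidant regulator Nfe2l2 did not pass (0.23 ± 0.13) and Gclm stood at 0.94 ± 0.11.

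Of 16 secreted synapse and matrix genes tested, 12 were called higher than in the other cells and 2 lower. Mfge8, a bridging protein of phagocytosis, was at 3340, 3383 and 3672 CPM against 88.4, 91.9 and 108 (5.23 ± 0.05). Sparcl1 (hevin), which promotes synapse formation, was at 2050, 2361 and 2293 CPM against 433, 414 and 434 (2.44 ± 0.05). Its antagonist Sparc was called lower at 65.7, 104 and 70.1 CPM (-3.02 ± 0.10), and microglia held 2552 CPM of it. Chrdl1, which helps synapses mature, was at 181, 114 and 147 CPM against 1.22, 0.887 and 0.962 (7.20 ± 0.22). Thbs1 had 3 UMIs in all astrocytes, and its level in the other cells was 3.21-fold higher in CPM (exact counting interval 1.09 to 15.6). This lower call was lost with DESeq2 (-2.05), without a filter on low counts (-1.72), without the block (-1.63), and when mouse 1 (-1.11) or mouse 2 (-1.28) was left out.

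The perineuronal matrix genes were shared with oligodendrocyte precursors. Bcan (brevican) was higher than in the other cells by 3.24 ± 0.05, but 0.39 ± 0.05 against precursors. Ptprz1, a receptor phosphatase of the matrix, was higher by 2.03 ± 0.05 and stood at -0.84 ± 0.05 against precursors. Ncan (neurocan) stood at -0.01 ± 0.08 against precursors. In all, 7 of the 14 genes tested against precursors were called higher and 1 lower, against 13 and 0 of 14 for mature oligodendrocytes. The 1 lower was Nlgn3, an adhesion protein of astrocytes and precursors (-1.91 ± 0.11).

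Transcription factors of glia were higher in 20 of 24 cases and lower in 1, with a median of 2.71. Id4, an inhibitor of helix-loop-helix factors, was at 1644, 1545 and 1364 CPM against 30.6, 28.6 and 28.6 (5.74 ± 0.06), and Zbtb20, a zinc finger factor of astrocyte development, at 1915, 2016 and 1958 CPM against 448, 446 and 454 (2.18 ± 0.05). Lhx2, a patterning factor of the cortex, was higher by 5.64 ± 0.11, and Pax6, the factor of radial glia, by 5.96 ± 0.16. Gli3, an effector of hedgehog signalling, was at 151, 130 and 169 CPM against 1.10, 0.844 and 1.01 (7.29 ± 0.22). Id1 was the factor called lower (-1.47 ± 0.13), with a mean of 1440 CPM in endothelial cells, and was higher than in precursors (3.54 ± 0.26). Nfix (0.10 ± 0.09) and the Notch target Hes1 (0.75 ± 0.11) did not pass. Hes5, another Notch target, was higher than in the other cells (3.43 ± 0.08) but not called against precursors (0.47 ± 0.08).

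Receptors were higher in 17 of 24 cases and lower in 2, with a median of 2.55. S1pr1, a receptor of sphingosine 1-phosphate, was at 1604, 1622 and 1805 CPM against 80.1, 77.3 and 91.9 (4.38 ± 0.05), with 534 CPM in endothelial cells. Ntsr2, a neurotensin receptor, was at 1113, 1151 and 1107 CPM against 10.5, 8.28 and 9.53 (6.94 ± 0.07). Gpr37l1, an orphan receptor of glia, was higher by 4.22 ± 0.05, and Ntrk2, the receptor of brain-derived neurotrophic factor, by 2.09 ± 0.05. Ptch1, the hedgehog receptor, was at 309, 328 and 342 CPM against 35.8, 37.2 and 33.3 (3.26 ± 0.10). Ednrb, an endothelin receptor, was higher than in the other cells (2.05 ± 0.08), and precursors held 841 CPM of it (-0.91 ± 0.07). Grm5, a glutamate receptor that declines in astrocytes after early life, was called lower at 13.9, 13.0 and 8.54 CPM (-3.51 ± 0.21), and excitatory neurons held 303 CPM. The other receptor called lower was P2ry1, which had 1 UMI in all astrocytes. Its call was lost with DESeq2 (-2.81) and without mouse 1 (-2.43) or mouse 3 (-2.20). The GABA-B receptor subunits Gabbr1 (0.11 ± 0.08) and Gabbr2 (0.70 ± 0.10) did not pass.

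Reactive genes were mostly lower than in the other cells. Of 36 listed genes, 28 could be tested, of which 4 were called higher and 17 lower than in the other cells, with a median of -2.19, or -1.86 with genes at 0 UMIs set to their bound. Lcn2, C3, Timp1 and Steap4, all used as signs of strong reactivity, had no UMI in any of the 463 astrocytes. This allows up to 1.93 CPM at 3 counts over the group. These zeros do not set astrocytes apart, as the genes were scarce in the other cells too. Steap4 stood at 1.31 CPM there, under that limit. In thinned cells of mouse 1, Lcn2, C3 and Timp1 were each found in 2 of 3610 other cells. Vim, the filament protein vimentin, was at 43.8, 75.6 and 39.3 CPM (-1.28 ± 0.14), with 804 CPM in endothelial cells. H2-D1, a class I histocompatibility gene, was at 33.8, 30.2 and 27.3 CPM against 333, 317 and 332 (-3.39 ± 0.14). The list includes many genes of microglia and vessels, and its counts compare astrocytes with sums that hold those cells. Against precursors, 2 of 13 genes tested were called higher and 8 lower (median -1.88). Against mature oligodendrocytes the counts went the other way, with 5 of 7 higher and 1 lower (median 2.69), and against excitatory neurons 9 of 19 were higher and 3 lower (median 1.62). Stat3 (0.17 ± 0.14) and S100a10 (-0.50 ± 0.20) did not pass.

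Gfap itself was sparse. It was at 39.8, 84.3 and 64.9 CPM in astrocytes and at most 1.02 CPM in the other cells (6.43 ± 0.31). A UMI of it was found in 14 of 149, 19 of 142 and 27 of 172 astrocytes (9.40, 13.4 and 15.7%), and most of these, 10, 12 and 21 cells, held only 1 UMI. Cells thinned to 2000 UMIs gave 5.88, 9.30 and 11.5% in astrocytes and 0.166, 0.0296 and 0% in the other cells. Thinning draws UMIs at random, and a separate draw gave 9 of 129 cells in mouse 2 where this one gave 12. Astrocytes with Gfap held a median of 3520.5, 3718 and 3431 UMIs, and those without held 3335, 3283 and 3397.

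Few other genes passed the test between astrocytes with and without a Gfap UMI. Of 4611 genes tested, 4 were called (0.0867%), 1 higher (0.0217%) and 3 lower (0.0651%), and 255 had an unadjusted p under 0.05. Apod (-4.91 ± 0.71, adjusted p = 1.05e-06), Ptgds (-3.73 ± 0.32, adjusted p = 1.44e-16) and Meg3 (-1.58 ± 0.33, adjusted p = 0.00523) were lower with Gfap, each in 3 of 3 libraries. These calls rest on few cells. For Apod, 5 cells held 98.4% of 182 UMIs, and for the prostaglandin synthase gene Ptgds 5 cells held 96.2% of 758 UMIs. The highest cell held 109 of 338 UMIs of Meg3, a neuronal noncoding RNA. Apod was no longer called without mouse 3 (-3.30) or with DESeq2 (-4.52). Meg3 was no longer called without mouse 1 (-1.54) or mouse 2 (-0.98), with DESeq2 (-1.53), without the block (-1.66) or in thinned cells (-0.65). None of the 19 further astrocyte markers was called between these groups.

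Immediate early and stress genes were low in astrocytes. These genes respond within minutes to activity and to handling, and dissociation can raise them. Of 18 listed genes, none was called higher and 17 lower than in the other cells, with a median of -3.69. Fos was at 233, 270 and 282 CPM against 1212, 1210 and 1248 (-2.17 ± 0.07). Jun was at 107, 112 and 197 CPM against 1970, 1920 and 1849 (-3.70 ± 0.08), and Egr1 at 39.8, 75.6 and 109 CPM against 1041, 1016 and 980 (-3.67 ± 0.09). The groups did not overlap, although mouse 3 had the highest astrocyte values of all 3 genes. In mouse 3 the highest astrocyte held 25 of the 165 Fos UMIs, and Fos and Jun were spread most unevenly over its cells, as given below. Dusp1, a phosphatase of the same response, was at 159, 175 and 140 CPM against 815, 786 and 803 (-2.30 ± 0.08). Cyr61 was the member that did not pass (-0.25 ± 0.11).

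The size of the margin depended on the class compared. Against precursors 13 of 18 genes were called lower and 1 higher, against mature oligodendrocytes 8 of 17 lower and 2 higher, and against excitatory neurons 12 of 18 lower and 2 higher. Fos was at 1893 CPM in microglia, 3144 CPM in endothelial cells, 1167 CPM in precursors, 528 CPM in excitatory neurons and 366 CPM in mature oligodendrocytes. Junb was lower than in the other cells (-4.31 ± 0.09) but stood at -0.34 ± 0.14 against mature oligodendrocytes. Whether handling or depth of the cells plays a part in these levels was not tested.

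**Figure D4:**
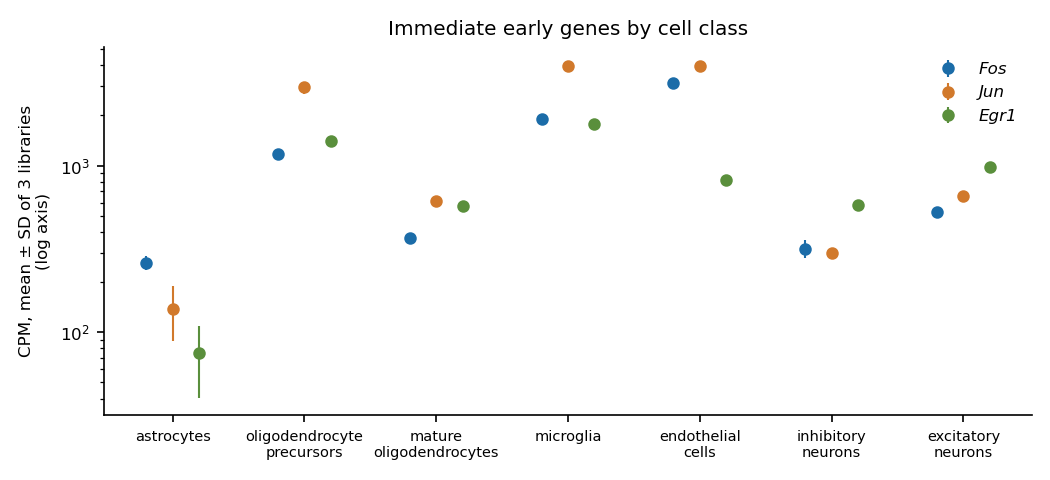
Mean CPM with its SD over 3 libraries (vertical axis, log scale) of immediate early genes in 7 cell classes of the unsorted libraries (horizontal axis). Astrocytes stand at 262 CPM for Fos, 139 CPM for Jun and 74.9 CPM for Egr1, the lowest class for each gene.

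Genes with layer or regional patterns in astrocytes were mostly detected. Of 17 tested outside the rule, 13 were called higher than in the other cells and 3 lower, with a median of 2.51. Chrdl1 and Slc7a10, genes of upper and broad cortical astrocytes, were at 148 ± 33.3 and 645 CPM. Agt, angiotensinogen, which is richest in astrocytes of deep layers and subcortical regions, was at 41.8, 25.9 and 22.2 CPM against 0.774, 0.380 and 0.612 (5.68 ± 0.43) and had a UMI in 38 of 463 cells. Igfbp2, a binding protein of insulin-like growth factors, was at 372, 285 and 357 CPM against 10.6, 7.26 and 7.08 (5.40 ± 0.12). Il33, an alarmin, did not pass (-0.26 ± 0.12), with 893 CPM in mature oligodendrocytes and 1.51 CPM in precursors. Crym, a thyroid hormone binding protein, was called lower (-2.55) at a mean of 7.85 CPM. Myoc, a gene of astrocytes at the brain surface, had no UMI in astrocytes.

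Variation among the astrocytes of each library was measured as the variance of UMIs over cells divided by that of Poisson counting at the same depth, for 2606 genes, with a median of 1.06. At the same relative spread this ratio rises with the level of a gene. Abundant genes such as Cst3 and Apoe can thus rank high through their level, and ratios of different genes do not compare directly. The highest ratios outside mitochondrial genes were those of Ptgds at 32.9, 332 and 194, Malat1 at 23.8, 37.6 and 35.7, and Cst3 at 13.4, 18.4 and 22.1. Ptgds rests on a few cells, as given above. Apoe stood at 10.4, 14.1 and 9.78 and Igfbp2 at 11.8, 4.09 and 5.58. Among the listed transcription factors, Id3 (3.39, 3.28 and 3.45) and Hes5 (4.30, 2.63 and 3.11) had the highest ratios. Igfbp2 was found in 192 of 463 astrocytes and its highest cell, in mouse 1, held 45 of the 187 UMIs of that library (24.1%), against 12.1% and 12.0% in the highest cells of mouse 2 and 3. Mt1 (3.27, 2.35 and 3.21) and Slc7a11 (3.40, 3.48 and 2.35) also exceeded the median gene in each mouse. Jun (1.39, 1.72 and 20.9) and Fos (2.54, 2.13 and 6.14) had their highest ratios in mouse 3. These are descriptions over cells, with no test.

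Among all called genes at 50 CPM or more, listed or not, those with the highest fold over the other cells were mostly glial enzymes and membrane proteins. Ppp1r3g, another glycogen targeting subunit, was at 157 ± 23 CPM against 0.549 (8.18 ± 0.24). Etnppl, which breaks down phosphoethanolamine, was at 254 ± 11.3 CPM against 0.978 (8.05 ± 0.19). Grin2c, an NMDA receptor subunit, was at 319 ± 8.08 CPM against 1.37 (7.90 ± 0.16). Cyp4f15, a fatty acid hydroxylase, stood at 7.98 ± 0.21, Acsbg1, an acyl-CoA synthetase, at 7.30 ± 0.13 and Pdzph1 at 7.66 ± 0.34. The predicted genes Gm7967 and Gm13111 stood at 7.69 and 7.43. At the other end were genes of microglia and vessels with no UMI in any astrocyte. Ccl3, a microglial chemokine, was at least 158-fold lower, Fcgr3, a microglial Fc receptor, at least 88.3-fold, Abcg2, an exporter of the blood-brain barrier, at least 66.1-fold, Adgrf5 at least 66.0-fold and Fn1, fibronectin, at least 64.4-fold.

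Some of the same genes led the contrast with oligodendrocyte precursors. Etnppl had 1 UMI in precursors against 392 in astrocytes, and Cyp4f15 had 1 against 301. Hhatl had none in precursors and was at least 212-fold higher in astrocytes, and Slco1c1, the thyroxine transporter, stood at 9.87 ± 0.19. The lowest genes included Dscam, an adhesion protein, at least 129-fold lower, and Gal3st1, a sulfatide synthesis enzyme, at least 94.0-fold lower. Sema3d, Snx22 and Tmem163 were at least 72.6-fold, 66.0-fold and 63.7-fold lower.

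Against mature oligodendrocytes the leaders were Entpd2, an ectonucleotidase, at least 776-fold higher, Atp13a4, a transport ATPase, at least 451-fold, Bmpr1b, a receptor of bone morphogenetic proteins, at least 441-fold, and Ddo, D-aspartate oxidase, at least 399-fold. None of these had a UMI in 1708 oligodendrocytes. F3, tissue factor, followed at 10.72 ± 0.16. Among the lowest genes were Car14, a carbonic anhydrase, at least 123-fold lower, Gal3st1 at least 122-fold, the oligodendrocyte connexin Gjb1 at least 110-fold, and the transcript C030029H02Rik at least 213-fold.

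The viral feature was rare in astrocytes. The tables hold a single feature named barcode, which does not separate the targets, and whether it sums all the viral barcodes could not be checked here. It had a UMI in 10 of 463 astrocytes (2.16%, exact 95% interval 1.04 to 3.94%), made up of 5, 1 and 4 cells in mouse 1, 2 and 3. No astrocyte held 5 or more of these UMIs, which were found in 39.0% of excitatory neurons. Among other gated non-neuronal cells, with medians of 4101, 4225 and 4415 UMIs, 3.62% held a UMI, and among excitatory neurons, with medians of 21343.5, 22239 and 23213 UMIs, 58.9%. Thinned to 2000 UMIs, the shares were 1.66% of astrocytes, 1.79% of the other non-neuronal cells and 31.9% of excitatory neurons. The exact 95% interval of the thinned astrocyte share, 0.671 to 3.40%, pools the cells of 3 mice and covers counting error only. In mouse 1, 2 and 3 the thinned shares were 2.94, 0.775 and 1.28% of astrocytes. In the other non-neuronal cells they were 2.04, 1.45 and 1.86%. The source of these UMIs was not tested.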

How the data were processed

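The authors deposited, for each library, raw UMI counts per gene and called cell, made with Cell Ranger 3.0.2 against mm10 (build per the processing notes). They also deposited a list of excitatory neurons. Cells in that list were left out of the astrocytes and of the other cells, and they formed the class of excitatory neurons. No normalization had been applied. Seurat 3.1.4 and Scanpy are named in the submitters' notes with no step given. Totals per library are given in the results and limit precision to counting error at least.

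Groups came from sample titles, 3 unsorted libraries of 1 mouse each and 1 pooled sorted library. Counts were summed per library and class. Comparison classes needed 4 or more UMIs of their own marker sum, at most 5 astrocyte marker UMIs and at most 2 of each other exclusion sum. Sums were tested with edgeR 4.0.16 (R 4.3.3; TMM factors, filterByExpr, quasi-likelihood F test, library as a block, Benjamini-Hochberg adjustment over all genes tested). The block is part of the design because both sums come from the same mouse, and correlations of deviations between same-library sums were -0.006 to 0.065. TMM added 0.28 to log2 CPM ratios against precursors, -0.34 against mature oligodendrocytes, -0.21 against excitatory neurons and 0.05 against the other cells. DESeq2 1.42.0 was an alternative. Python 3.11.15 with scipy 1.17.1 computed the rest. On simulated counts with 200 changed genes, the comparison with other cells recovered 99 of 106 genes changed by 3 on the log2 scale and 66 of 92 changed by 1.5, with 2 false calls among 14644 genes.

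The rule, its members and all gene lists were chosen with earlier results of these data known. Up to 4 members per list were named by highest astrocyte CPM among called genes, with 1 or 2 of the others. Over all called genes, listed or not, the 10 highest and 5 lowest folds at 50 CPM or more were taken. Other genes were named after their values were seen. Some genes that these rules name are not reported here. Promoters of Mt1, Mt2 and Mt3 (3 of 3 matched by symbol) came from RefSeq. Antisense and overlapping genes could not be told apart where the counting strand is not given in the sources used here.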

Additional observations from a re-analysis of the deposited data

How the results depend on the processing

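Over the settings tried (other size factors, DESeq2, no filter on low counts, other marker or exclusion limits, libraries left out), 2822 of 2901 repeats over 250 named gene results kept direction and side of the threshold, 34 lost a call, 35 gained one and 10 turned. Ncan against precursors turned without mouse 3, at 10 or more marker UMIs (0.0123) and at 0 exclusion UMIs (0.0459), with a range of -0.0823 to 0.0513 over the libraries left out. Against the other cells, Dcn (-3.21) and Foxj1 (0.0309) turned at 0 exclusion UMIs, Lum turned without mouse 2 (-0.29, and 1.49 at the most over the libraries left out), at 10 or more marker UMIs (-0.14) and at 0 exclusion UMIs (-7.80), and Nlgn3 turned without mouse 2 (range -0.0919 to 0.0244) and when other cells held at most 1 marker UMI (0.15). Lum had a UMI in 0 of 149 astrocytes of mouse 1 and in 2 of 142 of mouse 2. Its value of -7.80 is thus a fitted one on few or no astrocyte UMIs and gives no measured size. The cause of these turns was not tested.

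A fold limit of 0.5 in place of 1 raised calls against precursors from 3438 to 5243, which a lower limit does by construction. Genes called with against without Gfap numbered 1 with DESeq2, 8 with no filter on low counts, 1 in thinned cells and 8 for cells with 2 or more Gfap UMIs, against 4. The astrocyte share was 1.94% at 0 exclusion UMIs, and the viral share was 0 at 5 or more UMIs.

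Leaving out a library gave 5488 to 5628 calls against the other cells, 3377 to 3444 against precursors, 4453 to 4596 against mature oligodendrocytes, 6815 to 7048 against excitatory neurons and 2 to 6 with against without Gfap, shares of astrocytes of 2.18 to 2.52% and viral shares of 1.51 to 2.84%. Without the replicate block, calls numbered 6244, 3440, 4569, 7441 and 3 in the same order, and of the named genes Thbs1 and Meg3 lost their calls. Genes near the limit of 1 (Psat1, Acadm, and Hmgcs1 against mature oligodendrocytes) changed sides under 2 or more settings, and Thbs1 lost its call under 5.

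Depth limits what can be said of sparse genes, and genes at 0 give bounds only. Doublets, free RNA and loss of processes at dissociation were not measured.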
